A study of Mus musculus with 6 samples.

Results

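The genes described are 10 genes of major histocompatibility complex (MHC) class I antigen presentation and of the chromosome 17 segment around H2-K, followed in whole mouse lenses that lack Cd24a or carry it. They were listed by symbol: the class I heavy chains H2-K1, H2-D1 and H2-T22, the pseudogene H2-K2, the shared light chain B2m, the peptide transporter and loading genes Tap1, Tap2 and Tapbp, and Gm4152 and AA388235, which lie between H2-K2 and H2-K1. They make up 10 of the 55416 genes in the count table. The list was chosen by symbol with the measured counts of these genes in both genotypes, and their fold changes, already known, so their differences between genotypes are given as descriptions, without p-values; where the fit over all genes called one of them, the call is reported and supports nothing.

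Cd24a encodes a small glycoprotein anchored in the cell surface by a lipid, and the study asked what it does in the lens after birth. The knockout group was 3 samples of whole lens from mice with a germline knockout of Cd24a, strain label C57BL/6. The wild-type group was 3 samples of whole lens from mice with the strain label C57BL/har. Each sample pooled 2 lenses, and the animals were 8 weeks old by the sample labels and 7 weeks by the series text. The strain label differs wherever the genotype differs, so an effect of the Cd24a deletion and a difference between strains cannot be told apart in any result. Nothing in the labels says whether the knockout animals are littermates of the wild-type animals.

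Class I molecules display peptides from inside the cell to CD8+ T cells and to natural killer cells. A heavy chain (in mice H2-K, H2-D or H2-L) pairs with beta-2 microglobulin in the endoplasmic reticulum, where the transporter made of TAP1 and TAP2 delivers peptides and tapasin, the product of Tapbp, holds the empty heavy chain next to it. The lens is an avascular tissue of fiber cells and 1 layer of epithelium, and low class I levels are described for some tissues of the eye.

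Class I promoters are known for an upstream enhancer with a kappaB element, an interferon response element, a cAMP response-like core and CCAAT boxes, through which inflammatory signals and the transactivator NLRC5 act. The promoter windows below, from RefSeq on GRCm38.p6, run from 250 bases before to 50 bases after the annotated start. They are shown because they set the class I heavy chain that stood far lower in knockout lenses (H2-K1) beside the one whose difference was smaller (H2-D1), the light chain that overlapped between genotypes (B2m) and the noncoding neighbour with no knockout count (AA388235). Capitals mark matches, on either strand, to the kappaB element of the class I enhancer (the 10 capitals farthest upstream in H2-K1 and H2-D1), the core of the interferon response element (the 10 capitals in B2m, on the minus strand), TGACGC or TGACGT (cAMP response core) and CCAAT. Another motif searched, TATAAA, is left in lower case.
H2-K1, chr17:34000298-34000597, minus strand: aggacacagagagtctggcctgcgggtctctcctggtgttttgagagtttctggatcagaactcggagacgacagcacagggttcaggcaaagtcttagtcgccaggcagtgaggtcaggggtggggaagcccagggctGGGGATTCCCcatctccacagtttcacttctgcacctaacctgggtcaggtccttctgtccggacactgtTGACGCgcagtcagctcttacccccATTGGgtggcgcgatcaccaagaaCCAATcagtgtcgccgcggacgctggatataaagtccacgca
H2-D1, chr17:35262844-35263143, plus strand: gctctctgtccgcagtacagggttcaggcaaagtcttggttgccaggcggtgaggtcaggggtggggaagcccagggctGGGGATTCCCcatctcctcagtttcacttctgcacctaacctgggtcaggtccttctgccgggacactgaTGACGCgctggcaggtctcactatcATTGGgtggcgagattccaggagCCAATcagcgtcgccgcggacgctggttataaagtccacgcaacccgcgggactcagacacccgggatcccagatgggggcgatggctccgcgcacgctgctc
B2m, chr2:122147437-122147736, plus strand: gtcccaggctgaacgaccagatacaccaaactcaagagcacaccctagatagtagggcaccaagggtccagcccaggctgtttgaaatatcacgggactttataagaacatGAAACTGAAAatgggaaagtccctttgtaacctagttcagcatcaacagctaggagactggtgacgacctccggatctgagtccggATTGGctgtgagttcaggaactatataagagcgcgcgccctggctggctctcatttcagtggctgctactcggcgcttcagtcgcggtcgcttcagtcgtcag
AA388235, chr17:33981242-33981541, plus strand: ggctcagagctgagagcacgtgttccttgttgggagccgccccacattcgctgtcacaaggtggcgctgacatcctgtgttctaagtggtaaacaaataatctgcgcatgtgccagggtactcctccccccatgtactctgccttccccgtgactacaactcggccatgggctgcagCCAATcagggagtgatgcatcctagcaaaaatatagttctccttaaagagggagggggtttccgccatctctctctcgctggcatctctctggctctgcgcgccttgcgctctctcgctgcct

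H2-K1 and H2-D1 both held the kappaB letters, which were present in 0.107% of the 32851 promoter windows in the table. In both, the kappaB match lay 70 bases before a TGACGC match (7.40% of windows) and that match lay 25 bases before a CCAAT match read on the other strand (37.4% of windows). A second CCAAT followed after 24 bases in H2-K1 and after 23 in H2-D1, and TATAAA (13.6% of windows) after a further 27 in each. From the kappaB match to the end of TATAAA the windows were the same at 134 of 152 aligned positions (88.2%). Over the whole windows, whose annotated starts differ in place, identity was 59.3%. B2m held the interferon response core (3.44% of windows) and a CCAAT, both on the minus strand, with TATAAA upstream of them on the same strand, and AA388235 held a CCAAT. None of the searched motifs overlapped another within these windows. Neither H2-K1 nor H2-D1 had an exact match to the letters searched as the interferon response core in this window. Variants of those letters were not searched, so the search cannot decide whether either window holds an interferon response element. The matches of H2-K1 and H2-D1 stood in the same order at nearly the same spacing, and a match is a description of letters, not of factor binding.

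The 6 libraries held between 5384542 and 5966090 counts in knockout lenses and between 6262742 and 7302951 in wild-type lenses. Cd24a had 71, 58 and 45 counts in knockout libraries, against 20656, 18730 and 17514 in wild-type libraries, in keeping with every label. Levels are given as CPM (counts scaled to a common library total) scaled with edgeR's TMM factors, which adjust for differences in RNA composition. Of the 11474 genes with enough counts to test, 861 passed an adjusted p of 0.05 in edgeR's quasi-likelihood test (7.50%), of which 514 were lower in knockout lenses (4.48%) and 347 higher (3.02%). The median log2 fold change over these genes was 0.004, and with scaling by library size alone it was 0.11, with 336 lower and 1008 higher calls. The 14 lens markers listed, crystallin, fiber and epithelial genes, summed to between 276728 and 313049 CPM in knockout lenses and between 303481 and 323623 CPM in wild-type lenses. Birc7, Grifin, Crygs and Bfsp2 were called lower among the 13 tested, and Lim2 was listed at 0. The third library of each group stood apart in sex-linked genes: Xist had 1, 2 and 2466 counts in knockout libraries, against 0, 4 and 2191 in wild-type libraries, and the Y-linked Ddx3y had 261, 311 and 0 in knockout libraries, against 257, 301 and 0 in wild-type libraries. Without replicate 3 of both groups, the log2 fold change was -2.40 for H2-K1, -3.66 for H2-K2, -1.57 for Tap2 and -0.56 for H2-D1, and Gm4152 and AA388235 still had no knockout count.

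Tapbp averaged 19.6 CPM in knockout lenses and 23.1 CPM in wild-type lenses. The other genes described averaged 10.04 CPM or less in either group. Of the 10, 8 had enough counts to test, and H2-T22 and Tap1 had not. Among those 8, 5 were called lower in knockout lenses (H2-K1, H2-K2, Gm4152, AA388235 and Tap2) and none higher, beside the 4.48% of all tested genes called lower; the genes were chosen with this comparison in view and nothing is read from the count. Of the 8, 7 had every knockout library below every wild-type library, and 12.4% of all tested genes did. Gm4152, AA388235, H2-K1, H2-K2, Tap2 and H2-D1 passed the minimum on counts only with the wild-type libraries.

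H2-K1, the classical heavy chain of the K locus, had 6, 11 and 6 counts in knockout libraries, against 50, 51 and 28 in wild-type libraries. Its level was 1.30 ± 0.36 CPM in knockout lenses and 6.54 ± 1.82 CPM in wild-type lenses (SD, n = 3 each), 4.93-fold lower, with a log2 fold change of -2.30 (SE 0.34). The groups did not overlap, and the third wild-type library was the lowest of its group. In the authors' deposited table H2-K1 averaged 0.443 FPKM in knockout lenses and 2.23 FPKM in wild-type lenses, a signed fold of -4.93.

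H2-K2 is annotated as a transcribed unprocessed pseudogene, the class used for relics of gene duplication. It had 3, 7 and 4 counts in knockout libraries, against 79, 65 and 54 in wild-type libraries. That is 0.79 ± 0.28 CPM in knockout lenses and 10.04 ± 1.27 CPM in wild-type lenses (SD, n = 3 each), 12.3-fold lower (log2 fold change -3.62, SE 0.31). The pair differed in unequal measure: H2-K2 had 0.5, 0.636 and 0.667 counts for each H2-K1 count in knockout libraries, against 1.58, 1.27 and 1.93 in wild-type libraries, without overlap. The pseudogene was thus the less counted of the pair in each knockout library and the more counted in each wild-type library. The knockout ratios rest on 3 over 6, 7 over 11 and 4 over 6 counts and carry large counting error. Whether the balance of the pair shifted was not tested.

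Gm4152, a processed pseudogene, had no count in any of the 3 knockout libraries, against 28, 34 and 20 in wild-type libraries. Its wild-type level was 4.18 ± 1.08 CPM (SD, n = 3). Taking the floor of 3 counts over the knockout group (0.172 CPM), it was at least 24.3-fold lower, and at least 15.4-fold lower without knockout replicate 2, where fewer reads set the floor. AA388235, annotated as a long noncoding RNA on the strand opposite to its neighbours H2-K1, H2-K2 and Gm4152, had no knockout count either, against 40, 31 and 20 in wild-type libraries (4.59 ± 1.25 CPM, SD, n = 3). It was at least 27.0-fold lower, and at least 17.1-fold lower without knockout replicate 2. No 50-base stretch of either transcript occurs in a transcript of another gene of the GENCODE M21 annotation. Inexact copies and sequence outside annotated transcripts were not searched. The search therefore cannot decide whether these 2 genes could exchange reads with a copy elsewhere.

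H2-D1, the classical heavy chain of the D locus, had 10, 15 and 4 counts in knockout libraries, against 20, 21 and 17 in wild-type libraries. It averaged 1.62 ± 0.82 CPM in knockout lenses and 2.96 ± 0.30 CPM in wild-type lenses (SD, n = 3 each), a log2 fold change of -0.83 (SE 0.39), and was not called. All knockout libraries lay below all wild-type ones, but the third knockout library, with 4 counts, carried much of the gap: without it the log2 fold change was -0.51. For each H2-D1 count there were 0.6, 0.733 and 1.5 H2-K1 counts in knockout libraries, against 2.5, 2.43 and 1.65 in wild-type libraries. This ratio was lower in every knockout library than in any wild-type library, but narrowly. The nearest values, 1.5 and 1.65, were 6 over 4 counts in the third knockout library and 28 over 17 in the third wild-type library. At such counts that gap is small beside counting error, so no shift in balance is read from it. H2-T22, a nonclassical heavy chain recognised by some gamma delta T cells, had 2, 2 and 0 counts in knockout libraries, against 6, 2 and 0 in wild-type libraries, too few to compare.

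B2m, the light chain of all these heavy chains, had 17, 29 and 21 counts in knockout libraries, against 25, 17 and 33 in wild-type libraries. It averaged 3.81 ± 0.74 CPM in knockout lenses and 3.84 ± 1.34 CPM in wild-type lenses (SD, n = 3 each), a log2 fold change of -0.002 (SE 0.31) with overlapping groups. B2m was the only one of the 8 tested genes whose groups overlapped, and at these counts its standard error leaves room for differences in either direction.

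Among the peptide loading genes, Tap2, a subunit of the peptide transporter, differed most. It had 7, 12 and 11 counts in knockout libraries, against 31, 32 and 28 in wild-type libraries, or 1.71 ± 0.40 CPM in knockout lenses and 4.65 ± 0.34 CPM in wild-type lenses (SD, n = 3 each), 2.68-fold lower (log2 fold change -1.42, SE 0.31). Tap1, its partner in the transporter, had 7, 5 and 4 counts in knockout libraries, against 13, 3 and 2 in wild-type libraries, with overlapping groups and too few counts to test. Tapbp, the most abundant of the 10 in CPM, had 103, 128 and 112 counts in knockout libraries, against 156, 154 and 143 in wild-type libraries. It averaged 19.6 ± 1.07 CPM in knockout lenses and 23.1 ± 1.05 CPM in wild-type lenses (SD, n = 3 each), a log2 fold change of -0.23 (SE 0.11) that was not called and was -0.12 with scaling by library size alone.

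**Figure D1:**
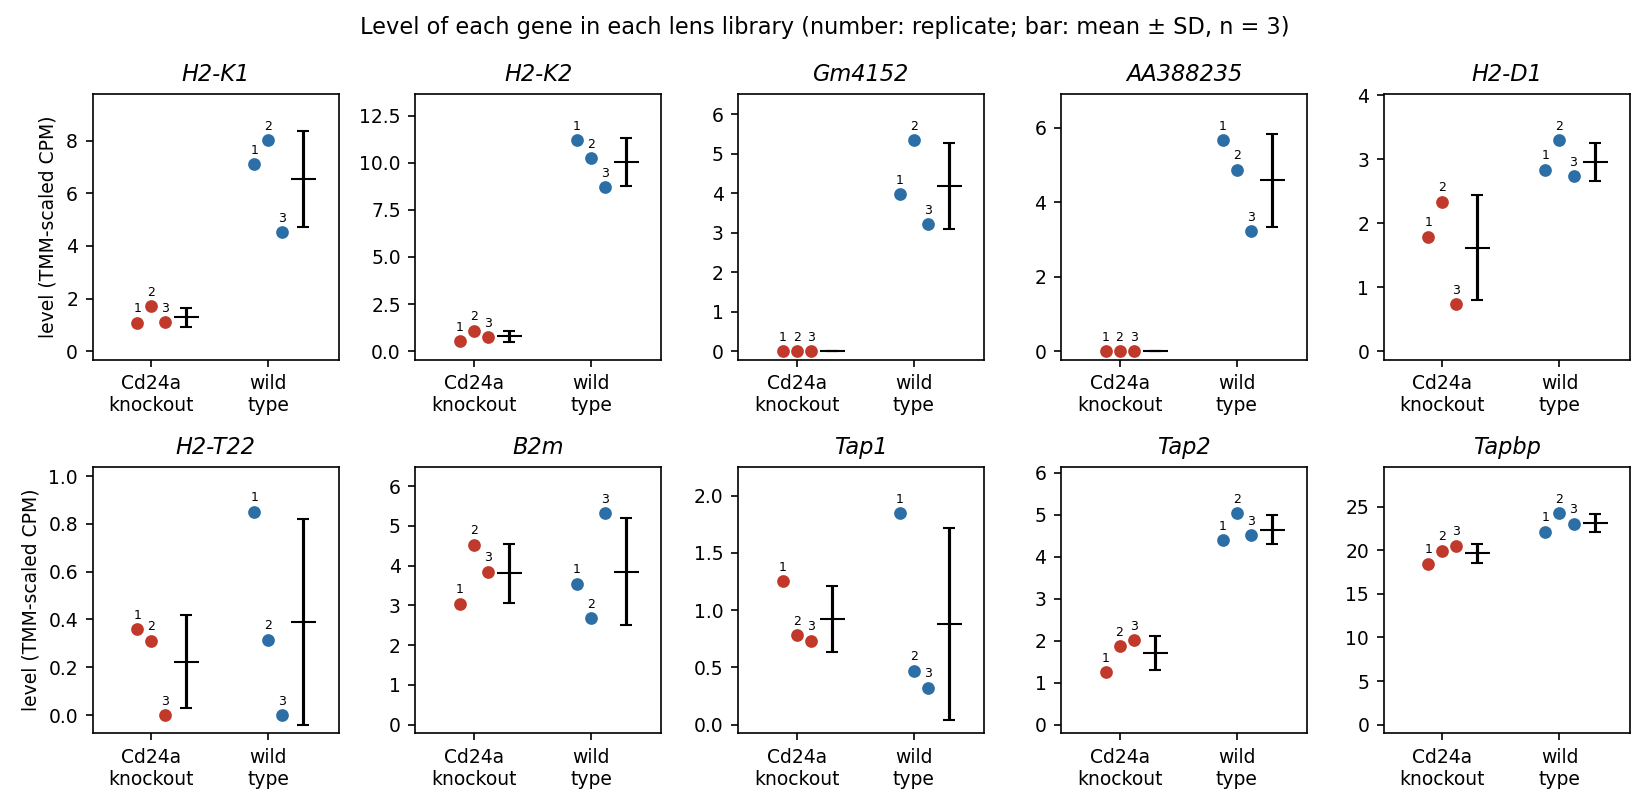
Level of each of the 10 genes in TMM-scaled CPM (vertical axis, a separate linear scale per gene), in knockout lenses on the left and wild-type lenses on the right. Points are libraries numbered by replicate and bars are the mean ± SD of 3; H2-K1, H2-K2, Gm4152, AA388235 and Tap2 stand clearly apart, while B2m, Tap1 and H2-T22 overlap.

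Because whole lenses were sequenced, fewer cells of a type and less RNA per cell cannot be told apart. The markers of leukocytes, cells with high class I levels, were scarce. The 19 leukocyte and macrophage genes summed to between 7.33 and 12.6 CPM in knockout lenses and between 8.33 and 14.2 CPM in wild-type lenses, with Cd3e and Cd52 at 0 in all libraries; none of the 3 tested was called. Lyz2 averaged 1.25 CPM in knockout lenses and 2.88 CPM in wild-type lenses, and Csf1r 1.86 CPM in knockout lenses and 1.88 CPM in wild-type lenses. Markers of pigment epithelium and pigment cells moved with genotype in sum. The 14 genes summed to between 55.7 and 70.0 CPM in knockout lenses and between 91.9 and 110.6 CPM in wild-type lenses. Rpe65, Rgr, Ttr and Oca2 were called lower of 9 tested, and Slc45a2 was at 0. That is 44.4% called, beside 7.50% of all tested genes in either direction. Calls for Rpe65 and Rgr were kept in all fits tried. The call for Oca2 was lost in 5 of the other fits, DESeq2 among them, and that for Ttr in DESeq2 alone. Over the other fits, between 2 (DESeq2) and 5 (limma-voom among them) genes of the list were called lower. The 12 genes of cornea, conjunctiva and iris stroma summed to between 71.7 and 82.1 CPM in knockout lenses and between 97.7 and 106.8 CPM in wild-type lenses, with Aldh3a1 called lower of 2 tested and Krt12 and Kera at 0. The 14 photoreceptor genes summed to between 185.9 and 318.2 CPM in knockout lenses and between 191.1 and 493.9 CPM in wild-type lenses (Gnat1 called lower of 12 tested, between 0 and 9 with 1 library left out), and the 13 endothelial and pericyte genes to between 73.1 and 85.0 CPM in knockout lenses and between 67.9 and 72.0 CPM in wild-type lenses (Rgs5 called higher of 3 tested, Emcn at 0). The part of these cell types in the levels of the class I genes was not tested.

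Levels between genes are compared per length of the gene model, in CPM per kb. In knockout lenses the order from high to low was Tapbp (5.41), B2m (4.42), H2-D1 (0.629), H2-K2 (0.460), Tap2 (0.453), H2-K1 (0.441), Tap1 (0.168) and H2-T22 (0.0654), with Gm4152 and AA388235 at 0. H2-D1, H2-K2 and Tap2 each overlapped the next in that order, ending with H2-K1, and Tapbp overlapped B2m. In wild-type lenses the order was Gm4152 (15.1), AA388235 (6.40), Tapbp (6.37), H2-K2 (5.86), B2m (4.47), H2-K1 (2.23), Tap2 (1.23), H2-D1 (1.15), Tap1 (0.161) and H2-T22 (0.114). There, AA388235, Tapbp and H2-K2 each overlapped the next gene, ending with B2m, as did Tap2 with H2-D1 and Tap1 with H2-T22. Gm4152, a short gene model of 276 bp, headed the wild-type order and was at 0 in knockout lenses. H2-K1 stood above H2-D1 in wild-type lenses, and below it in knockout lenses, where their ranges overlapped.

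**Figure D2:**
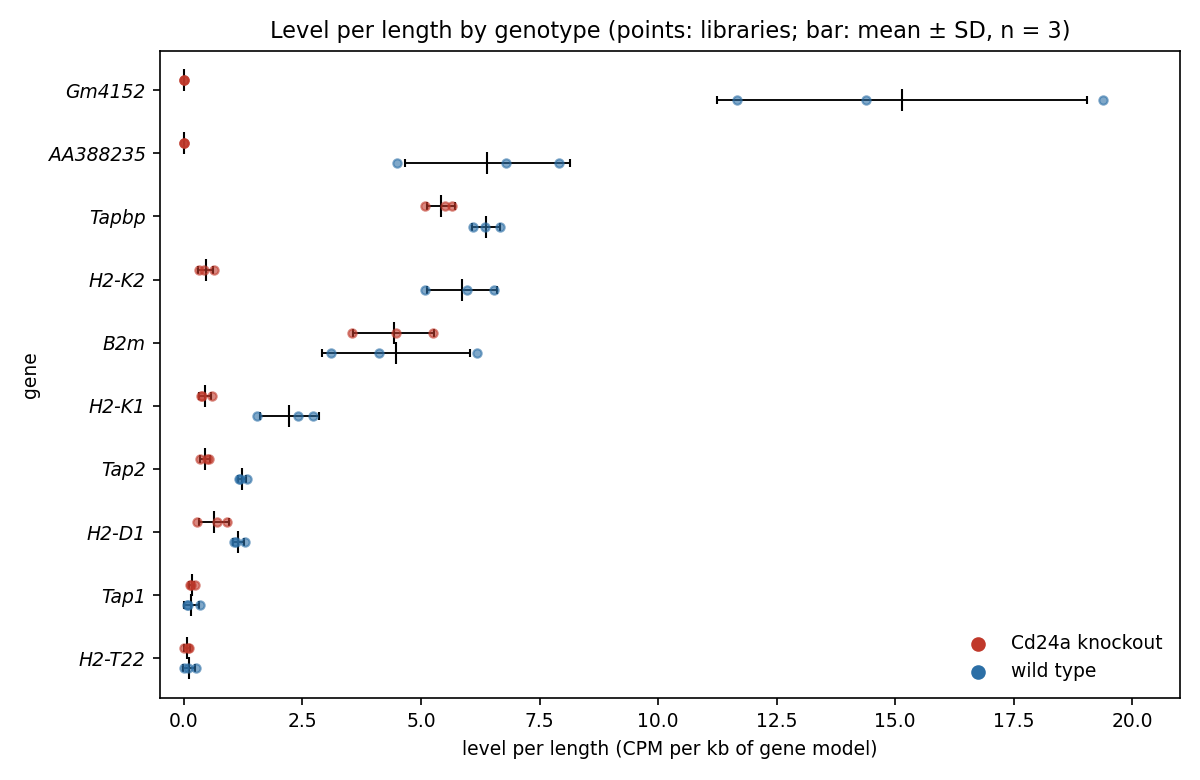
Level per length in CPM per kb of gene model (horizontal linear axis) for each gene, knockout lenses above wild-type lenses, with points for libraries and bars for the mean ± SD of 3. Gm4152 and AA388235 lead in wild-type lenses at 15.1 and 6.40 and are at 0 in knockout lenses, while Tapbp and B2m keep nearby levels in both.

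Of the 10 genes, 9 lie on chromosome 17 and B2m on chromosome 2. In the order of the GENCODE M21 annotation, H2-K2, Gm4152, AA388235 and H2-K1 follow one another. No other gene of the count table lies between them, and gene models absent from that table were not examined. Together these 4 genes had 37 counts in knockout lenses and 500 in wild-type lenses. Their summed level was 1.61, 2.81 and 1.83 CPM in knockout libraries, against 27.9, 28.5 and 19.6 CPM in wild-type libraries. H2-D1, B2m and Tapbp summed to 23.3, 26.8 and 25.1 CPM in knockout libraries, against 28.5, 30.2 and 31.1 CPM in wild-type libraries, also without overlap. That set was chosen after the values were seen and leaves out Tap2. Most of its sum is Tapbp, at 19.6 CPM in knockout lenses and 23.1 CPM in wild-type lenses. The run of 4 averaged 2.08 ± 0.64 CPM in knockout lenses and 25.3 ± 4.95 CPM in wild-type lenses in sum (SD, n = 3 each), with no overlap.

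The tested genes next to the run on either side were not called. Vps52, a subunit of a tethering complex for vesicles, averaged 16.97 ± 3.11 CPM in knockout lenses and 15.4 ± 0.27 CPM in wild-type lenses (SD, n = 3 each; log2 fold change 0.14, SE 0.14, edgeR adjusted p = 0.643). Ring1, a Polycomb ubiquitin ligase on the other side, averaged 6.45 ± 0.52 CPM in knockout lenses and 6.65 ± 0.51 CPM in wild-type lenses (log2 fold change -0.05, SE 0.20, edgeR adjusted p = 0.923). Further out, the zinc transporter gene Slc39a7 (-0.47), the retinoid X receptor gene Rxrb (0.06) and the bromodomain gene Brd2 (0.08) had log2 fold changes, given here, that were not called. Rps18, a ribosomal protein gene, was called lower, with 229.3 CPM in knockout lenses and 269.4 CPM in wild-type lenses (log2 fold change -0.23, edgeR adjusted p = 0.0367). That call was lost with scaling by library size alone and in 4 of the 6 fits that left out 1 library (adjusted p between 0.104 and 0.217). Tap2 was the fifth tested gene beyond H2-K1 on the Ring1 side.

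Over the H2 complex from Daxx to Gabbr1, a span chosen after the values were seen, 62 tested genes outside the 10 had a median log2 fold change of 0.02, against 0.004 over all genes tested. Of these, 56 lay within 1.5-fold of equal levels. Rps18, Skiv2l and Trim26 were called lower and C4b, Sapcd1, Clic1 and Tubb5 higher. Only 6 of the 69 tested genes of the span had a log2 fold change of -1 or below or no knockout count: H2-K2, Gm4152, AA388235, H2-K1, Tap2 and Gtf2h4, of which the last was not called. Over chromosome 17 outside the 10 genes, 35 of 554 tested genes were called lower and 22 higher. Of all tested genes, 4.48% were called lower and 3.02% higher.

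**Figure D3:**
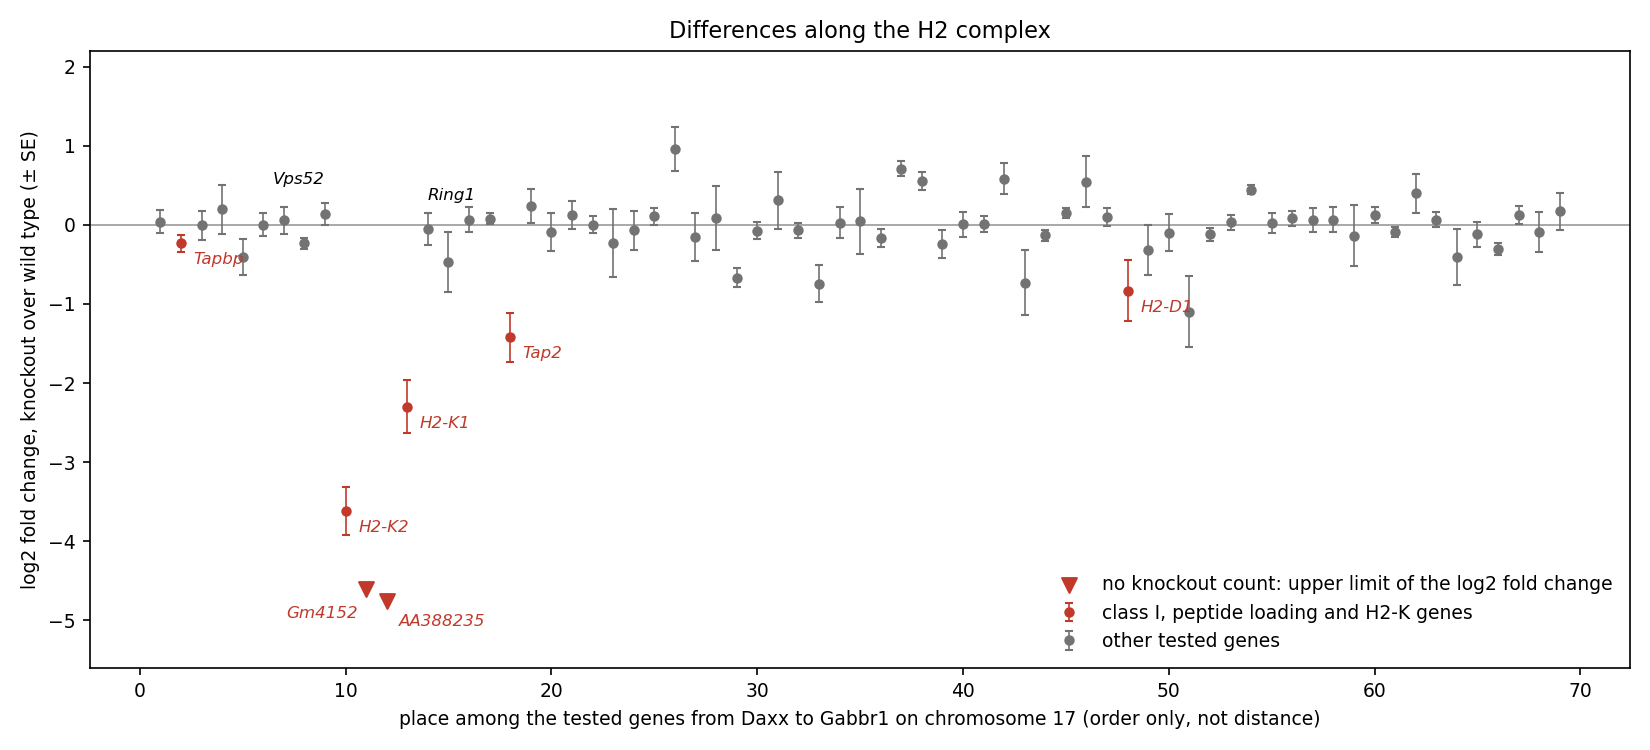
Log2 fold change, knockout over wild type (vertical axis, bars are the standard error), of the 69 tested genes from Daxx to Gabbr1 in their order on chromosome 17 (horizontal axis, places and not distances). Downward triangles are upper limits for Gm4152 and AA388235, which had no knockout count; the 4 lowest points are adjacent, and Vps52 and Ring1 beside them lie near 0.

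Among 26 other class I heavy chains and relatives in the table, 10 had no count in any library and 3 could be tested. Of these 3, 1 was called (33.3%, beside 7.50% of all tested genes). Hfe, the class I-like regulator of iron uptake, was called lower, with 15.1 ± 1.19 CPM in knockout lenses and 20.6 ± 2.71 CPM in wild-type lenses (SD, n = 3 each; log2 fold change -0.45, SE 0.13, edgeR adjusted p = 0.0369). The call was lost in 8 of 15 other fits, with adjusted p between 0.0513 and 0.178. Fcgrt, the heavy chain of the neonatal Fc receptor, had a log2 fold change of 0.14 (SE 0.21) and Mr1, which presents vitamin metabolites, of 0.41, neither called.

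Of 24 tested genes of peptide generation and loading outside the 10, 3 were called lower and none higher, with a median log2 fold change of -0.10. That is 12.5% called, beside 7.50% of all tested genes in either direction. Hspa5, the chaperone BiP of the endoplasmic reticulum, averaged 147.6 ± 11.8 CPM in knockout lenses and 209.1 ± 2.66 CPM in wild-type lenses (SD, n = 3 each; log2 fold change -0.50, SE 0.06, edgeR adjusted p = 1.61e-05). Pdia6, a disulfide isomerase of the same compartment, averaged 130.5 ± 1.93 CPM in knockout lenses and 177.3 ± 6.85 CPM in wild-type lenses (log2 fold change -0.44, SE 0.06, edgeR adjusted p = 3.32e-05). Both serve protein folding in general and not class I alone, and both were called in all fits tried. Psme3, a proteasome activator subunit, had a log2 fold change of -0.30 (edgeR adjusted p = 0.0218), a call lost in 6 of 15 other fits. Canx, the chaperone calnexin that receives new heavy chains, had a log2 fold change of -0.14 (SE 0.06) and the peptidase gene Nrd1 of 0.01 (SE 0.06), neither called.

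Of 28 tested regulators of class I genes, none was called, and 3 had an unadjusted p of at most 0.05 in edgeR. DESeq2 and limma-voom made no call either, and scaling by library size alone made 1. Nlrc5, the class I transactivator, averaged 46.5 ± 5.67 CPM in knockout lenses and 42.4 ± 5.72 CPM in wild-type lenses (SD, n = 3 each; log2 fold change 0.13, SE 0.10), and Jak1, the kinase of interferon receptors, had a log2 fold change of -0.05 (SE 0.08). The median of the list was -0.02. Of 37 interferon response genes with an entry, most were too scarce to test. Among the 12 tested, 1 was called higher and 1 lower (16.7%, beside 7.50% of all tested genes). Their median log2 fold change was 0.42, beside 0.004 over all tested genes. Mx2, an interferon-induced GTPase, averaged 2.29 ± 0.079 CPM in knockout lenses and 0.26 ± 0.24 CPM in wild-type lenses (SD, n = 3 each; log2 fold change 3.07, SE 0.59, edgeR adjusted p = 0.00156). With 13, 15 and 12 counts in knockout libraries, against 2, 0 and 3 in wild-type libraries, Mx2 passed the minimum on counts only through the knockout libraries. Samhd1, a nucleotide hydrolase that restricts viruses, averaged 6.27 ± 2.52 CPM in knockout lenses and 14.05 ± 1.6 CPM in wild-type lenses (log2 fold change -1.19, SE 0.22, edgeR adjusted p = 0.00137). Trim25, a ubiquitin ligase of RNA sensing, had a log2 fold change of 0.12 (SE 0.20) and was not called.

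Class II molecules present peptides to CD4+ T cells. Of the list of class II chains and their loading genes, the 4 tested were Cd74, Ctss, Ctsl and Ifi30, none of them a class II chain and none on chromosome 17. Ctsl, a lysosomal protease, was called lower (log2 fold change -0.18, edgeR adjusted p = 0.0383), a call lost in 9 of 15 other fits; Ifi30, a lysosomal reductase, was at -0.90 (SE 0.30) and not called. The median of the 4 was -0.90, and 1 of them was called (25%, beside 7.50% of all tested genes). The chains themselves, which lie in the H2 complex, were scarce. Chosen after their values were seen, H2-Ab1 had 0 counts in knockout lenses and 21 in wild-type lenses, H2-Aa 2 in knockout lenses and 11 in wild-type lenses, and H2-Eb1 7 in knockout lenses and 18 in wild-type lenses, all below the minimum for testing. In the H2-K neighbourhood, 15 tested genes outside the 10 held 1 call, Rps18 (median log2 fold change 0.04). In a list of other H2 complex genes, which does not hold Trim26 or Sapcd1, 42 tested genes had a median of 0.01, with Skiv2l, an RNA helicase of the exosome, called lower (-0.67, edgeR adjusted p = 0.000986). Tubb5, a beta tubulin (0.44), Clic1, a chloride channel protein (0.55), and C4b, a complement component (0.96), were called higher; the call for C4b was lost in 6 of 15 other fits. Bag6, a chaperone of the cytosol, had a log2 fold change of -0.13 and was not called. The share called was 6.67% in the H2-K neighbourhood and 9.52% among the other H2 complex genes, beside 7.50% of all tested genes.

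**Figure D4:**
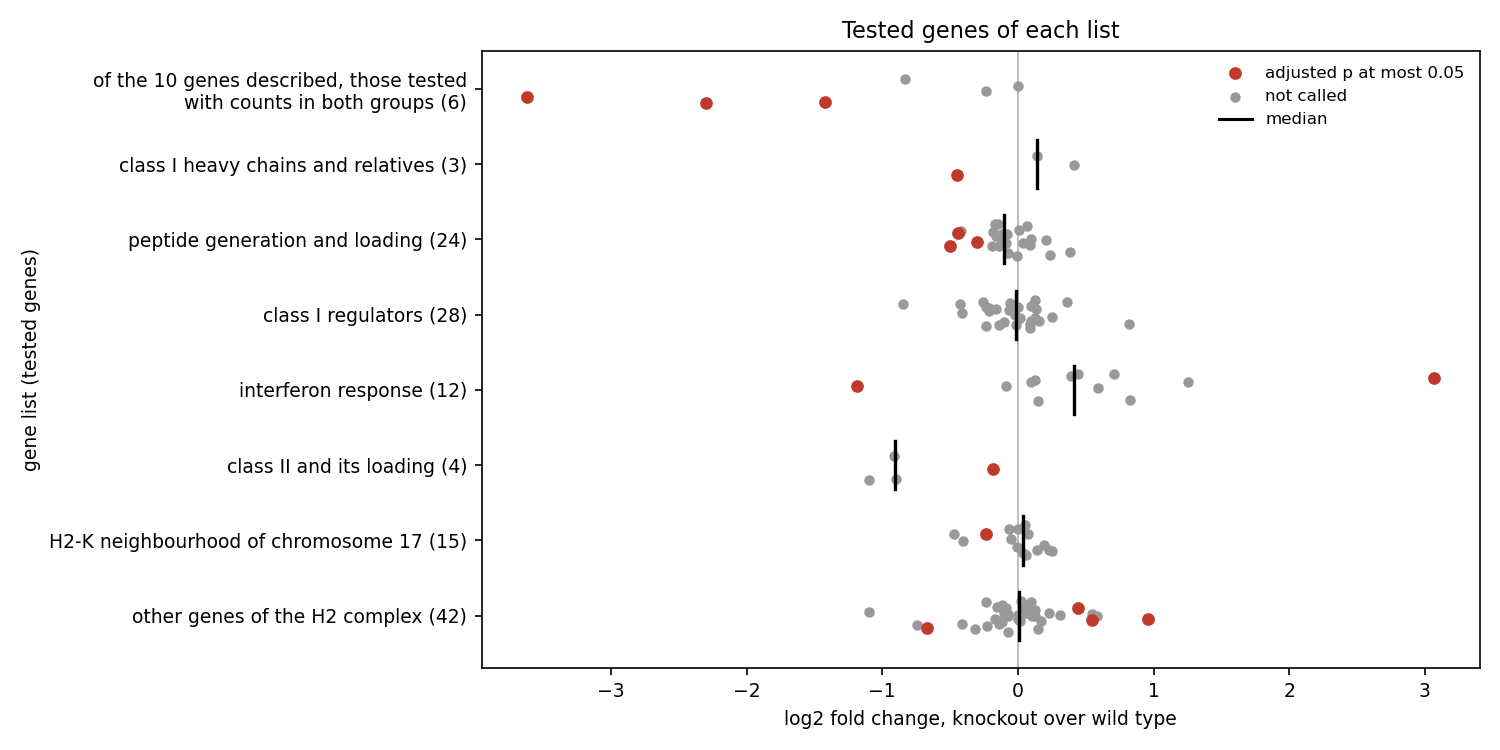
Log2 fold change, knockout over wild type (horizontal axis), of each tested gene by list (vertical axis, number of tested genes in brackets), with called genes in red and the medians of the lower 7 rows as black bars. In the top row, Gm4152 and AA388235 have no fitted value because they had no knockout count; the median is -0.02 for class I regulators and 0.42 for interferon response genes.

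Over the 6 libraries, the genes whose centred log2 CPM lay nearest to that of H2-K1 among the 11466 tested genes outside the 10 were Alox15, Gm12408 and 5S_rRNA, at root mean square distances of 0.08, 0.16 and 0.21 on the log2 scale. Alox15, a lipoxygenase, averaged 0.62 ± 0.14 CPM in knockout lenses and 3.75 ± 0.89 CPM in wild-type lenses (SD, n = 3 each). Gm12408 averaged 0.28 ± 0.17 CPM in knockout lenses and 2.13 ± 0.33 CPM in wild-type lenses, and 5S_rRNA, a multicopy gene whose reads cannot be placed with certainty, 0.62 ± 0.23 CPM in knockout lenses and 3.40 ± 1.31 CPM in wild-type lenses. They lie on chromosomes 11, 4 and 8. These genes, like H2-K1, were all lower in every knockout library, and the likeness is a description over libraries that fall into 2 genotypes.

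Class I genes resemble one another, and the sources used here do not say how reads that match several genes were counted. In GENCODE M21 transcripts, 9.63% of the 50-base stretches of H2-K1 also occur in another gene, among them H2-Q10 (5.18%) and H2-D1 (4.08%). The share was 9.38% for H2-K2, 12.8% for H2-D1 and 53.5% for H2-T22, whose closest copy was H2-T10 (31.2%). These are shares of exact stretches and not of reads, and inexact copies were not searched. The levels of the class I genes, and that of H2-T22 above all, are therefore uncertain to an extent not measured here. B2m shared no such stretch, and Tap1 shared 3.33%. Tap2 shared 11.6%, mostly with the overlapping model Gm15821 on the other strand, and Tapbp 23.2%, mostly with Gm19412. B2m, Tap1, Tap2, Tapbp and H2-T22 each overlap a gene model on the opposite strand, and whether the counting used strand is not stated, so reads of such partners cannot be told apart. Tapbp also overlaps Zbtb22 on the same strand, where strand would not separate them. H2-K1, H2-K2, Gm4152, AA388235 and H2-D1 overlap no other gene model in that annotation.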

How the data were processed

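RNA from whole lenses was sequenced as stranded, ribosome-depleted, low-input total RNA libraries (SMARTer Stranded Pico), single end over 4 lanes, per the labels' protocols. HISAT2, HTSeq and edgeR, and the build GRCm39, are named in the submitters' processing notes. Versions, roles and the use of strand in counting are not given in the sources used here. Deposited were unnormalised read counts on Ensembl 104 features, made by the authors, with gene lengths and a GC fraction that was not used, and, in their comparison tables, mean FPKM, a signed fold change (a score never between -1 and 1), edgeR p-values and q-values. The p-values were not used.

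Counts were fitted with edgeR 4.0.16 (limma 3.58.1, R 4.3.3): TMM scaling, filterByExpr, the quasi-likelihood test on genotype with all 6 libraries, and Benjamini-Hochberg adjustment over 11474 genes, called at an adjusted p of 0.05 or less. The tested genes held at least 99.6% of each library's counts, and the common biological coefficient of variation was 7.19%. The fit was tested on simulated data. The labels call the samples biological replicates. Floors are 3 counts and cover counting error only. The alternatives were DESeq2 1.42.0, limma-voom, other scalings and filters, a replicate block, and libraries left out. Promoters, motifs and 50-base stretches were read from RefSeq tables (GRCm38.p6) and GENCODE M21, matched by symbol or gene identifier; 7 of the 10 genes had a promoter window, and the annotation served for gene order, biotype and overlaps. M21 is on another build than the counts, so no gene coordinates of it are given.

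The genes, lists and markers were chosen with earlier results of these data known. Named genes are the 10, every called gene of a list up to the 5 of largest fold change with its 2 most abundant genes, the 3 genes nearest H2-K1 in pattern, the 5 tested genes on each side of H2-K1, and Cd24a. Mr1, Trim26, Sapcd1, Gtf2h4, the class II chains, Cd74 and Ctss, the sex-linked genes and the markers at 0 fall outside this rule and were named after their values were seen.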

Additional observations from a re-analysis of the deposited data

How the results depend on the processing

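Over the 15 alternatives, the log2 fold change lay between -2.57 and -2.13 for H2-K1, -3.95 and -3.42 for H2-K2, -1.57 and -1.25 for Tap2, -1.21 and -0.51 for H2-D1, -0.27 and -0.12 for Tapbp, and -0.20 and 0.29 for B2m, whose sign was not stable. Without a low-count filter, H2-T22 was at -0.76 and Tap1 at 0.02.

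With library size alone, 1344 genes were called (1008 higher, 336 lower), class I relatives, class II genes and the H2-K neighbourhood had 0 called lower, class I regulators 1 called higher and the other H2 complex genes 5 called higher. DESeq2 called 574 genes (219 higher), and 0 class I relatives lower, as did limma-voom and the replicate block. Without a filter, 2 interferon response genes were called higher and 2 other H2 complex genes lower. With the replicate block, which rests on numbers that do not pair the samples (correlations of same-numbered deviations 0.04, -0.13 and -0.09), 781 genes were called, with 2 interferon response genes higher and 0 class II genes lower.

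With 1 library left out, between 593 and 837 genes were called, between 207 and 325 higher and between 386 and 512 lower. In those fits, calls lower ranged from 0 to 1 for class I relatives, class II genes and the H2-K neighbourhood and from 1 to 2 for the other H2 complex genes, and calls higher from 1 to 2 for interferon response genes. Without replicate 3 of both groups, 647 genes were called, 210 of them higher, and 0 class II genes lower. The cause of these changes was not tested.

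Per kb, H2-K1 stood at place 6 of 10 in both genotypes; without length correction it stood at place 5 in knockout lenses and 3 in wild-type lenses. Of the 3 genes nearest to H2-K1, 2 were shared with a prior count of 0.5 and 1 with each gene scaled to unit spread. Tap1 and H2-T22, at 13 or fewer counts per library, are limited by depth and by spread between libraries.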
